A study of Mus musculus with 31 samples.

Results

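Hybrid-only hotspots that follow C3H are places in the genome where meiotic DNA breaks were called in F1 hybrids with a C3H parent and in no other mouse of the series. The autosomal hotspots of 6 crosses were pooled, and hotspots whose centres lay under 400 bp apart were merged into 1 place. A place was kept when it was called with at least 2 different partner strains and lay 400 bp or more from every hotspot centre of 20 other lists. This left 526 places of 54632, and they account for 1494 of the 88807 autosomal hotspots in the 6 crosses. The members were thus chosen by presence and absence in these lists, so where they were called is a description and carries no test.

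DMC1 is the recombinase that coats resected break ends in meiosis, and DMC1 SSDS, done here on mouse testis, sequences the single strands it holds. In the name of a cross, f follows the mother's strain and m the father's. The 6 crosses were B6fXC3Hm and C3HfXB6m, which are reciprocal and count as 1 partner, C3HfX13Rm, C3HfXCASTm, C3HfXMOLm and PWDfXC3Hm. The 20 lists set against them come from 13 F1 crosses without a C3H parent, 6 inbred strains and a Prdm9 knockout (B6;129P2-Prdm9<tm1Ymat>/J). The labels give C3H as C3H/HeJ, B6 as C57Bl/6J and 13R as B10.F-H2pb1/(13R)J, which are laboratory strains. They give PWD as PWD/PhJ, MOL as MOLF/EiJ and CAST as CAST/EiJ, which derive from wild mice of other subspecies. Each genotype had 1 library, so no value for a single cross has a replicate error. The labels state neither the age of the mice nor how many gave tissue for a library. According to the series text, a supposed CAST by 13R hybrid was mislabelled and dropped, yet the sample named there carries the inbred CAST label. With that list left out of the exclusion there were 527 members, so its label changes the count by 1.

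PRDM9 is a zinc-finger histone methyltransferase that binds DNA, marks the nucleosomes beside its binding sites and so places most meiotic breaks in mice. Its DNA-binding fingers differ between strains, and therefore so do the hotspots. An F1 hybrid carries the alleles of both parents, so each PRDM9 protein meets both parental genomes.

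Among the 526 places, 16 (3.04%) held a whole promoter window, which runs 250 bases before to 50 bases after an annotated start. The share of all places that held a whole window was not computed. Windows of 3 genes are shown, to set windows at members called with every partner beside that of a member of wild-derived crosses alone. Dlg1, which encodes a scaffold protein of cell junctions and synapses, and Gm31279 lie at the 2 strongest members called with every partner strain. Pyroxd1, a pyridine nucleotide-disulphide oxidoreductase gene, lies at a member called with CAST and PWD only, with a strength percentile within the list, where 100 is the strongest, of 54.0 in C3HfXCASTm and 99.4 in PWDfXC3Hm. Capitals mark the dinucleotide CG. The sequences are RefSeq GRCm38.p6, which is the B6 reference and not C3H sequence, on the plus strand, for Dlg1 at chr16:31754100-31754399, for Gm31279 at chr6:50531768-50532067 and for Pyroxd1 at chr6:142345447-142345746.
Dlg1: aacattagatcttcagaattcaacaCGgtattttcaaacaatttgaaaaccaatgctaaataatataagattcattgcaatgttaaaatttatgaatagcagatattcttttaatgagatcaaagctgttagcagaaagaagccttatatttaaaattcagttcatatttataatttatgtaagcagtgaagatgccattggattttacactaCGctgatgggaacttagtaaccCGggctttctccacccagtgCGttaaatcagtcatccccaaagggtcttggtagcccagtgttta
Gm31279: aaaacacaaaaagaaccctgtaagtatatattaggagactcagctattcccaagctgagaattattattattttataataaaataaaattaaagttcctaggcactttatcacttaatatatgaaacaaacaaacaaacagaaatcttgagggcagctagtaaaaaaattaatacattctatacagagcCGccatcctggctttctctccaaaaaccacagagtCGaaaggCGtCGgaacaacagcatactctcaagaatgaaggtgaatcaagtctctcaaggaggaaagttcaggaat
Pyroxd1: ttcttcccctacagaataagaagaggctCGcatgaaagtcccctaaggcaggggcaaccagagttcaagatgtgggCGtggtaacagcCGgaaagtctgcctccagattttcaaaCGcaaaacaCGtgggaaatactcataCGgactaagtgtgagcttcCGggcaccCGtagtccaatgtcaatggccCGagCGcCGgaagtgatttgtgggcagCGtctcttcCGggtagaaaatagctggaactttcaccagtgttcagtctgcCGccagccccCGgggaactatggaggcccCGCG

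The Dlg1 window held 4 CG dinucleotides and 33.7% G and C, and the member's centre lay 379 bp downstream of the start. That start is an annotated one within the gene, since the member's centre was 91286 bp from the nearest end of Dlg1. The Gm31279 window also held 4, with 34.7% G and C, and its member is the one named below as near Cycs. The interval of that member overlaps a hotspot of an excluded list, and the nearest excluded centre, of inbred C3H, lay 461 bp away. The Pyroxd1 window was richer, with 17 CG dinucleotides and 55% G and C, and its member was centred 1540 bp downstream of the start. The interval of the Pyroxd1 member also overlaps such a hotspot, and the nearest excluded centre, of the knockout, lay 1502 bp away. The interval of the Dlg1 member overlaps none. Over the 16 windows the median was 45.8% G and C, with a range of 26.7% to 74.7%, against a median of 53% over all 31396 autosomal promoter windows. The latter are not limited to windows held by hotspots, so the medians are given as description. The contrast of Pyroxd1 with Dlg1 and Gm31279 depends on the choice of window. Gm49668, at a member of MOL and PWD with a higher mean percentile (79.3 against 76.7), held 1 CG dinucleotide and 47% G and C. Windows at members of the wild-derived crosses alone ranged from 1 to 36 CG dinucleotides, and the median over all 16 windows was 4. Of the other windows, Cbx3, a heterochromatin protein gene, had 71.7% G and C at a member of B6, 13R, MOL and PWD, and Ptbp2, a splicing regulator of brain and testis, had 74.7% at a member of CAST, MOL and PWD. A member's centre fell within a window at 3 of 526 places (0.570%), against 172 of 54632 places (0.315%).

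The lists of the 6 crosses held 12850 to 17123 autosomal hotspots, and the depth of the libraries is unknown. Of all places, 2445 (4.48%) were hybrid-only, and the 526 members are 0.963% of all places and 21.5% of the hybrid-only ones. A further 1919 hybrid-only places were called with 1 partner strain. For places of every kind, 18.4% were called with at least 2 partners.

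Most of the 526 places were called only in crosses with wild-derived strains. Of the members, 381 (72.4%, 95% exact Clopper-Pearson interval 68.4% to 76.2%) were called with CAST, MOL or PWD and with neither B6 nor 13R. Another 133 (25.3%, 21.6% to 29.2%) were called with strains of both kinds, and 12 (2.28%, 1.18% to 3.95%) with B6 and 13R alone. The intervals here and below cover counting error only. The comparison set is places at a hotspot of inbred C3H and of no other inbred strain, again called with at least 2 partners, and the wild-derived crosses alone held 123 of 3407 of these (3.61%, 3.01% to 4.29%). Among all 10069 places with at least 2 partners the same share was 32.5%. The comparison is a description, since the rule chose the members on calls in these lists.

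The leading combination was MOL with PWD, which accounted for 180 members (34.2%). CAST, MOL and PWD together followed with 129 (24.5%), CAST with PWD with 46 (8.75%) and CAST with MOL with 26 (4.94%). Among all places with at least 2 partners these combinations held, in the same order, 13.6%, 5.76%, 11.5% and 1.59%. CAST with PWD thus had a lower share among members, and the others a higher one. All 5 partner strains shared 27 members (5.13%), against 3.6% of all places called with 5 partners. That 3.6% is taken over places with any number of partners. Of all places with at least 2 partners, as the rule asks, 19.5% were called with all 5, so members had the lower share. By number of partners, 292 members (55.5%) were called with 2, 163 (31.0%) with 3 and 44 (8.37%) with 4. Of the 10069 places of every kind with at least 2 partners, 4455 were called with 2, 1814 with 3 and 1832 with 4.

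**Figure D1:**
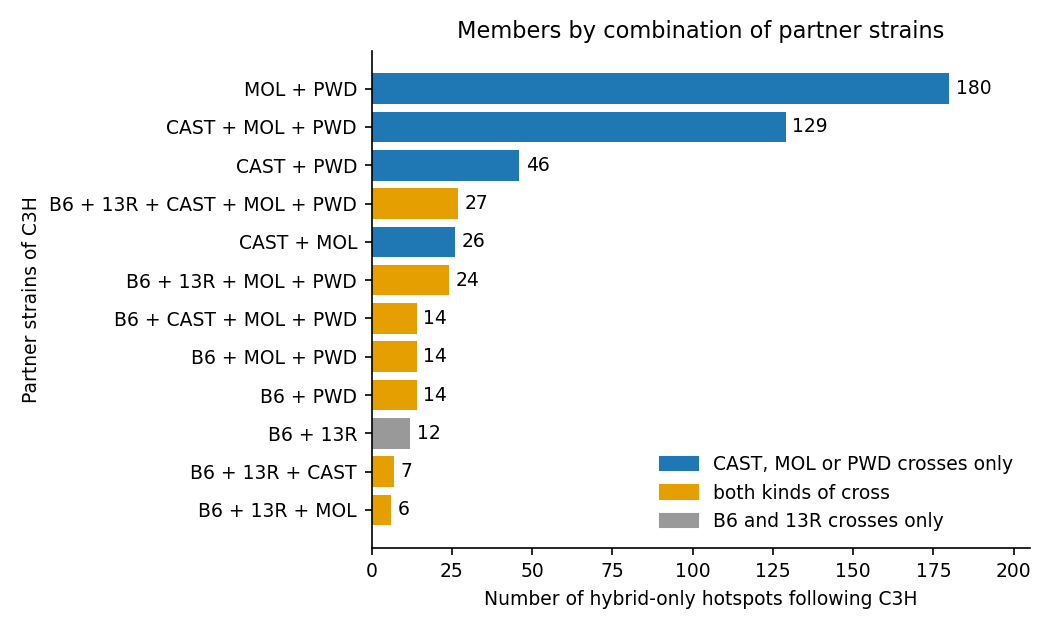
Horizontal bars give the number of members (x axis) for the 12 most frequent combinations of partner strains (y axis), coloured by kind of partner (blue, wild-derived crosses only, orange, both kinds, grey, B6 and 13R only). MOL with PWD leads with 180 members, ahead of CAST, MOL and PWD with 129.

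The partners differed in how often they took part. PWD had 456 members (86.7%), against 91.4% of the 3407 places at inbred C3H hotspots. MOL had 435 (82.7%, against 79.0%) and CAST had 262 (49.8%, against 43.3%), so for the 3 wild-derived partners both sets lay within 7 percentage points. B6 had 137 members (26.0%) although it had 96.1% of the comparison places, and 13R had 94 (17.9%, against 62.2%). A member called with MOL was also called with PWD in 390 of 435 cases (89.7%). It was also called with B6 in 93 (21.4%), against 94.1% of all 2728 places at hotspots of inbred C3H alone that were called with MOL, those of 1 partner included. The crosses also differed in how much of the inbred C3H list they recovered. C3HfXB6m recovered 72.6% of its 13742 hotspots, B6fXC3Hm 60.6%, PWDfXC3Hm 39.9%, C3HfXMOLm 34.2%, C3HfX13Rm 26.1% and C3HfXCASTm 19.3%. Recovery of the parental list was thus highest in both B6 crosses, where few of the members were called.

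**Figure D2:**
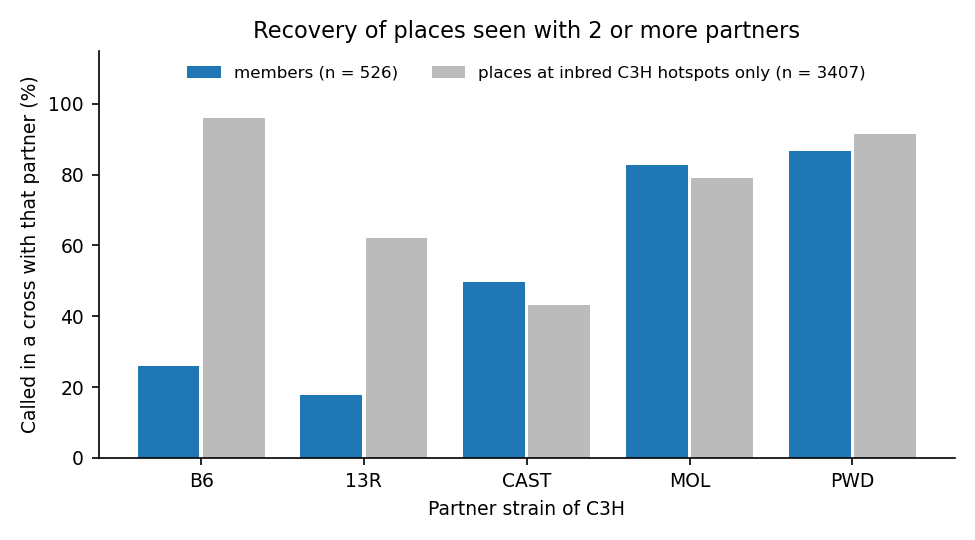
Bars give the percentage of places (y axis) called with each partner strain (x axis), for the members and for places at hotspots of inbred C3H alone. The sets stand apart at B6, with 26.0% of members against 96.1%, and at 13R, with 17.9% against 62.2%.

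Per list, members were 456 of the 15665 hotspots of PWDfXC3Hm (2.91%), 435 of 15166 in C3HfXMOLm (2.87%) and 262 of 13024 in C3HfXCASTm (2.01%). They were 131 of 17123 in C3HfXB6m (0.765%), 116 of 12850 in B6fXC3Hm (0.903%) and 94 of 14979 in C3HfX13Rm (0.628%). All hybrid-only hotspots, members included, made up 5.99% of PWDfXC3Hm, 5% of C3HfXMOLm and 3.85% of C3HfXCASTm. They were 3.64% of C3HfXB6m, 2.97% of C3HfX13Rm and 2.07% of B6fXC3Hm.

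Strength was read as a percentile of the deposited score within the autosomal hotspots of a list, with 100 the strongest. The median member stood at 60.9 in PWDfXC3Hm, 56.5 in C3HfXB6m, 55.5 in C3HfXMOLm, 50.5 in B6fXC3Hm, 47.9 in C3HfXCASTm and 33.0 in C3HfX13Rm. The mean of these 6 medians was 50.7 ± 9.82 (SD over 6 lists), against 46.0 ± 5.24 for all hotspots at places of inbred C3H alone, whatever their number of partners. Hybrid-only hotspots called with 1 partner had a mean of 22.4 ± 6.56, and their median was below that of the members in 6 of 6 lists. The rule asked for at least 2 partners, so this gap is a description. By number of partners, the median of the mean percentile was 45.0 for 2, 59.6 for 3, 52.7 for 4 and 60.3 for 5, against 20.5 for 1. Within the wild-derived crosses, members of those crosses alone had a median percentile of 63.9 in PWDfXC3Hm, 56.4 in C3HfXMOLm and 47.9 in C3HfXCASTm, against 51.1, 46.6 and 45.2 for members also called with B6 or 13R. The members of wild-derived crosses alone thus had the higher median in 3 of 3 lists. Members with all 5 partners stood highest in both B6 crosses, with medians of 84.6 over the 25 called in C3HfXB6m and 81.7 over 27 in B6fXC3Hm, and lowest in C3HfXCASTm, with 40.8 over 27. The median width of a member was 1696 to 2238 bp over the 6 lists, against 1246 to 1646 bp for hybrid-only hotspots of 1 partner and 1766 to 2006 bp for all other hotspots. Members were wider than all other hotspots in PWDfXC3Hm (2238 against 1976 bp), C3HfXB6m (2234 against 1898 bp) and B6fXC3Hm (1854 against 1766 bp), narrower in C3HfX13Rm (1696 against 2006 bp) and C3HfXCASTm (1897 against 1986 bp), and alike in C3HfXMOLm (2002 bp each). They were in the strongest 10% of the list in 65 cases in PWDfXC3Hm (14.3%) and in 1 case in C3HfX13Rm (1.06%).

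**Figure D3:**
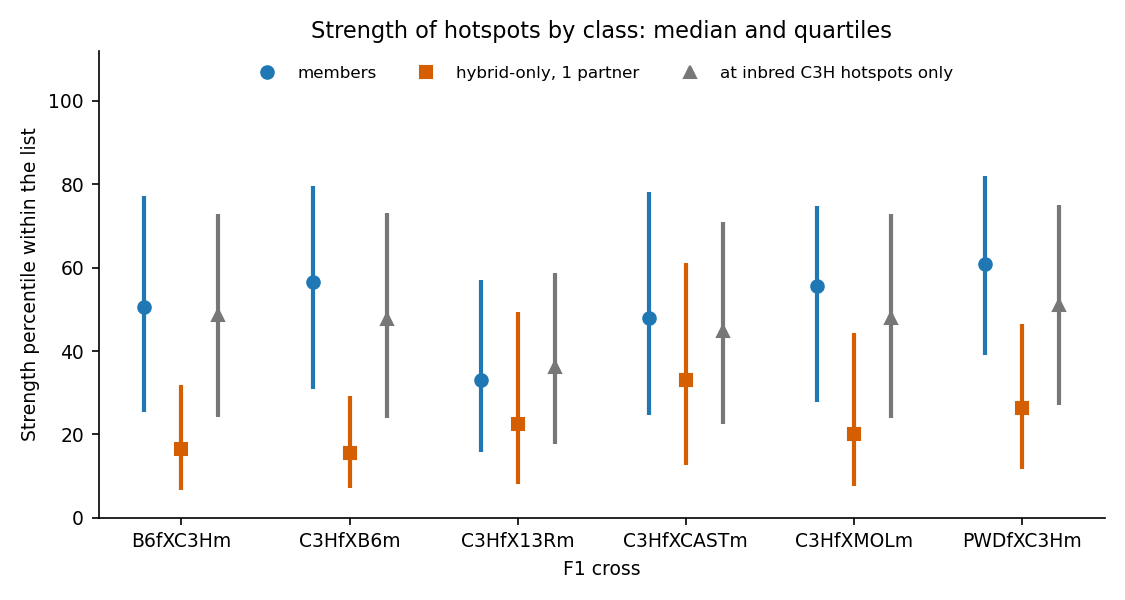
Points give the median and lines the quartiles of the strength percentile within the list (y axis) in each of the 6 crosses (x axis) for members, places at hotspots of inbred C3H and hybrid-only places of 1 partner. Median members sit between 33.0 and 60.9, and the hybrid-only places of 1 partner lie lower in every cross.

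The 10 members with the highest mean percentile were all called with CAST, MOL and PWD crosses alone, as were 45 of the 50 strongest and 29 of the 50 weakest. That mean covers only the lists that call a member, and members called in fewer lists are averaged over fewer values. The lists also differ in their median member, from 33.0 in C3HfX13Rm to 60.9 in PWDfXC3Hm. The ranking therefore depends in part on which lists call a member. The first of the 10 lies inside Gpr63, a G protein-coupled receptor gene, on chr4 at 25001187 to 25005426. It had percentile 99.9 in C3HfXCASTm and 99.8 in PWDfXC3Hm, and was not called in the other 4 crosses. Its interval overlaps an excluded hotspot, and the nearest excluded centre, of inbred B6, lay 2792 bp away. A member whose nearest gene end belongs to Prdm1, the regulator of germ cell and plasma cell fate, 74107 bp away, was called at chr10 44600268 to 44605037. Its percentiles were 98.6 in C3HfXCASTm, 98.5 in C3HfXMOLm and 99.6 in PWDfXC3Hm. Its interval also overlaps an excluded hotspot, and the nearest excluded centre, of MOLfX13Rm, lay 542 bp away. A member 122 bp from an end of Chrnb3, a nicotinic acetylcholine receptor subunit gene, lies on chr8 at 27366549 to 27370587 and had 98.9, 98.8 and 96.5 in the same 3 lists, with no excluded hotspot overlapping it. These 3 members stood near the top of every list in which they were called, which follows from their choice by mean percentile over those lists.

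Another 2 of the strongest members lie inside genes with well-known roles. Ryr2, the calcium release channel of heart muscle, holds a member on chr13 at 11685975 to 11690706 with percentiles of 98.0 in C3HfXCASTm, 97.4 in C3HfXMOLm and 98.0 in PWDfXC3Hm. Brdt, the testis-specific bromodomain protein that reads acetylated histones in spermatids, holds a member on chr5 at 107379468 to 107384225 with 96.7 in C3HfXCASTm and 96.2 in PWDfXC3Hm. Neither interval overlaps an excluded hotspot. The gene table gives a gene's ends and not its exons, so a position inside a gene is not assigned to an exon or an intron. The other 5 of the 10 strongest have their nearest gene end at Csnk1g3, Abhd13, Npvf, Rgr and Sstr4, at 3237 to 161548 bp.

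Members called with all 5 partners include hotspots that were strong in every cross. The strongest lies inside Dlg1 on chr16 at 31752813 to 31756632, with percentiles of 98.2 in B6fXC3Hm, 97.7 in C3HfXB6m, 93.9 in PWDfXC3Hm, 93.2 in C3HfXMOLm, 90.0 in C3HfX13Rm and 88.5 in C3HfXCASTm. The nearest excluded centre, of inbred B6, was 38934 bp away, and this member is the one whose promoter window is printed above. Auts2, a gene of neuronal development longer than 1 Mb, holds a member on chr5 at 132028067 to 132031354. Its percentiles were 98.2 in C3HfXMOLm, 97.8 in C3HfXB6m, 97.1 in B6fXC3Hm, 90.1 in PWDfXC3Hm, 70.7 in C3HfX13Rm and 53.6 in C3HfXCASTm, so it ranked near the middle of the CAST cross. Elovl5, an elongase of long-chain fatty acids, holds a member on chr9 at 77917993 to 77921386 with 97.1 in C3HfXB6m, 95.6 in B6fXC3Hm, 83.1 in C3HfXMOLm, 82.7 in PWDfXC3Hm, 81.2 in C3HfX13Rm and 61.1 in C3HfXCASTm. The CAST cross again had the lowest percentile. The members near Cycs, the cytochrome c gene, inside Usp29, an imprinted ubiquitin protease gene, and near N6amt1, a methyltransferase gene, also had all 5 partners. Inbred C3H had a hotspot centred 461 bp, 478.5 bp and 711 bp from these 3.

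A member inside Cntn4, a neuronal cell adhesion gene longer than 1 Mb, was strong where it was called and absent from the lists that hold most other members. On chr6 at 106337186 to 106342327, it had 99.7 in C3HfXB6m, 99.5 in B6fXC3Hm, 96.5 in C3HfX13Rm and 80.0 in C3HfXCASTm. It was not called in C3HfXMOLm or PWDfXC3Hm. Fhit, another very long gene, holds a member on chr14 at 10156345 to 10159546 with the opposite pattern, at 94.1 in PWDfXC3Hm and 91.1 in C3HfXMOLm and called in no other cross. In all, 11 members (2.09%) lie inside genes over 1 Mb, against 2.91% of all places.

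Across members the percentiles of 2 crosses were correlated to different degrees. The reciprocal crosses B6fXC3Hm and C3HfXB6m had a Spearman rho of 0.94 over 110 shared members, and the places of inbred C3H alone had 0.94 over 3813. PWDfXC3Hm and C3HfXMOLm had 0.83 over 390 members and 0.81 over 2499 places of inbred C3H alone. The percentile in PWDfXC3Hm was higher by a median of 5.25 points for the members and 6.07 points for those places. C3HfXCASTm had 0.76 with C3HfXMOLm over 202 members and 0.69 with PWDfXC3Hm over 218, against 0.71 and 0.66 for places of inbred C3H alone. With the B6 crosses it had 0.17 over 55 in C3HfXB6m and 0.39 over 49 in B6fXC3Hm. Places of inbred C3H alone were also weakly correlated there, with 0.22 over 1395 and 0.29 over 1332. C3HfX13Rm had 0.72 with C3HfXCASTm over 42 members, 0.74 with C3HfXMOLm over 68 and 0.72 with PWDfXC3Hm over 59. Places of inbred C3H alone had 0.37, 0.68 and 0.62 in the same order. These are correlations across places, which share the C3H parent and are not replicates, and are given as description. The percentile in C3HfXB6m was above that in C3HfX13Rm by a median of 27.6 points over 81 shared members, against 32.9 points over 2107 places of inbred C3H alone.

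The reciprocal crosses differ in the direction of the cross, so they show how repeatable a member is in 2 libraries of the same pair of strains. Of the members called in B6fXC3Hm, 110 of 116 (94.8%, 89.1% to 98.1%) were also called in C3HfXB6m. For hybrid-only places of B6 alone the figure was 119 of 150 (79.3%, 72.0% to 85.5%), and for all places 99.0%. From C3HfXB6m to B6fXC3Hm it was 110 of 131 (84.0%, 76.5% to 89.8%) for members and 119 of 493 (24.1%, 20.4% to 28.2%) for hybrid-only places of B6 alone. All places gave 74.3% in that direction. C3HfXB6m is the longer list, with 17123 hotspots against 12850. The sets also differ by the rule, since members needed a call with another partner and places of B6 alone had none. In C3HfXB6m the median percentile was 56.5 for members and 15.6 for hybrid-only places of B6 alone. Whether strength accounts for the gap in repeat calls was not tested.

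Some members lie beside a hotspot of inbred C3H, just past the 400 bp that the rule allows. The intervals of 64 members (12.2%, 9.50% to 15.3%) overlapped an interval of the inbred C3H list, against 187 of 1919 (9.74%) for hybrid-only places of 1 partner, a share inside the members' interval. The share was 11 of 381 (2.89%, 1.45% to 5.11%) for members of the wild-derived crosses alone, 49 of 133 (36.8%, 28.6% to 45.6%) for those of both kinds and 13 of 27 (48.1%, 28.7% to 68.1%) for those with all 5 partners. Hotspots of inbred B6 overlapped 4.72%, 6.77% and 7.41% of the same sets, and those of the knockout 8.14%, 7.52% and 11.1%, and for both lists the exact intervals of the 3 shares overlap. At 200 bp in place of 400 bp the shares were 6.75% for members of the wild-derived crosses alone and 69.7% for the others, and at 800 bp they were 1.67% and 22.3%. The 64 overlapping members had a median mean percentile of 41.1, against 54.0 for the other 462.

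**Figure D4:**
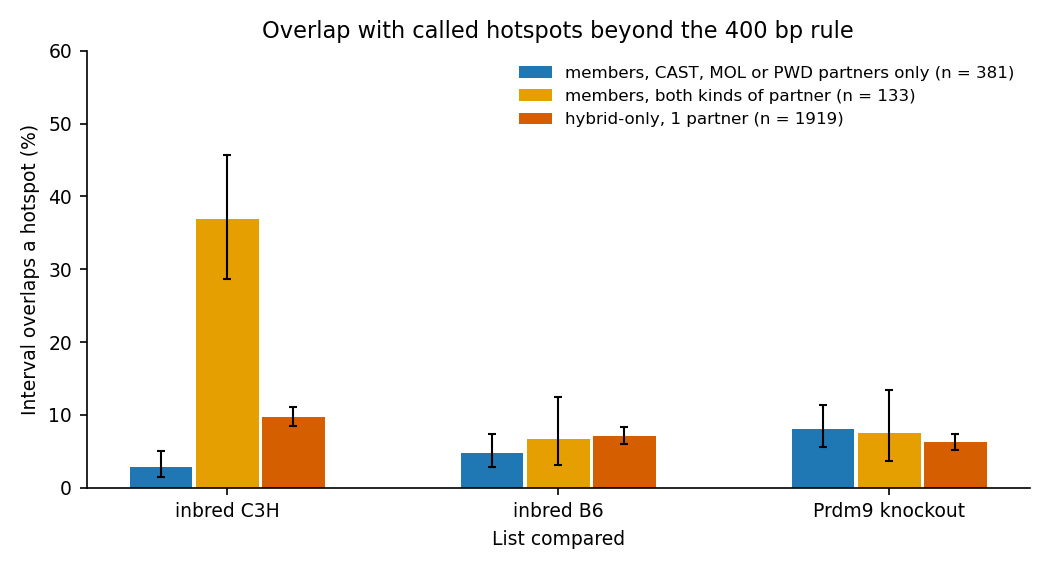
Percentage of places (y axis) whose interval overlaps a hotspot of inbred C3H, inbred B6 or the knockout (x axis), for members by kind of partner and hybrid-only places of 1 partner, with 95% exact Clopper-Pearson intervals as error bars. The inbred C3H bars range from 2.89% for members of the wild-derived crosses alone to 36.8% for those of both kinds.

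Any excluded list overlapped 170 of the 526 intervals (32.3%, 28.3% to 36.5%), against 31.4% for hybrid-only places of 1 partner. The other 356 members overlapped no hotspot of the 20 lists, and 293 of these (82.3%) belonged to the wild-derived crosses alone. The nearest excluded centre lay a median of 4630 bp away, with quartiles of 1848 and 10762 bp, and 142 members (27.0%) were more than 10000 bp from any. That nearest centre belonged to the knockout list for 110 members (20.9%), to inbred C3H for 96 (18.3%) and to each of the other 18 lists for at most 63. The knockout and C3H lists held 9.88% and 4.53% of all excluded hotspots. Among the 1919 hybrid-only places of 1 partner, the nearest centre was of the knockout for 364 (18.97%) and of inbred C3H for 220 (11.46%). The knockout share of members was thus close to that of other hybrid-only places, and the C3H share was higher. These shares were not tested. At the edge of the rule, the member nearest to an excluded centre lies on chr2 at 88701058 to 88703645, 400.8 bp from inbred C3H, and was called with B6, 13R, MOL and PWD at a mean percentile of 23.1. Another on chr18 at 57975517 to 57980038, 402 bp from a centre of B6fXPWDm, was called with MOL and PWD at 93.2. A place on chr10 at 93201122 to 93203285 was left out because its centre was 389 bp from one of B6fXMOLm.

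Positions along the chromosomes and relative to genes were compared between members and the other hotspots of the same list, with each partner strain as 1 value. In the distal 10 Mb lay 51 members (9.70%, 7.30% to 12.6%), against 8.93% of all places. The difference was +2.04 ± 1.84 percentage points (SD, n = 5 partners), higher with 5 of 5 partners, with an exact two-sided sign-flip permutation p = 0.0625 and a Benjamini-Hochberg adjusted p = 0.167 over 4 positions. That p is the smallest that 5 values allow, so no position could pass the threshold of 0.05. The 5 values are not independent, because the partners share the C3H parent and each member recurs with at least 2 of them. MOL and PWD, for example, had 390 members in common. The distal difference was 0.506 points when any overlap of intervals counted (exact permutation p = 0.375), and 1.10 without C3HfX13Rm and 3.16 without PWDfXC3Hm. Inside protein-coding genes lay 263 members (50%, 45.6% to 54.4%), against 52.0% of all places, with a difference of -2.66 ± 2.60 points, lower with 4 of 5 partners (exact permutation p = 0.125, adjusted p = 0.167). Within 1000 bp of a gene end lay 15 (2.85%), against 3.22% of all places, with a difference of -1.27 ± 1.13 (exact permutation p = 0.125, adjusted p = 0.167). The proximal 10 Mb held 31 (5.89%), against 6.67%, with a difference of -0.910 ± 1.06 (exact permutation p = 0.1875, adjusted p = 0.188). Of the 15 members at gene ends, 14 belonged to the wild-derived crosses alone. They include Psma8, a meiosis-specific proteasome subunit gene, 758.5 bp from the centre of a member on chr18 at 14760274 to 14762813, with 60.3 in PWDfXC3Hm and 55.9 in C3HfXMOLm. Chrna2, another nicotinic receptor subunit gene, had its end 107.5 bp from the centre of a member on chr14 at 66132382 to 66134283, with 72.0 in PWDfXC3Hm and 41.2 in C3HfXCASTm. Vps8, which encodes an endosomal tethering protein, had its end 851 bp from a stronger member on chr16 at 21643605 to 21647441, with 96.6 in PWDfXC3Hm, 95.8 in C3HfXMOLm and 92.1 in C3HfXCASTm.

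**Figure D5:**
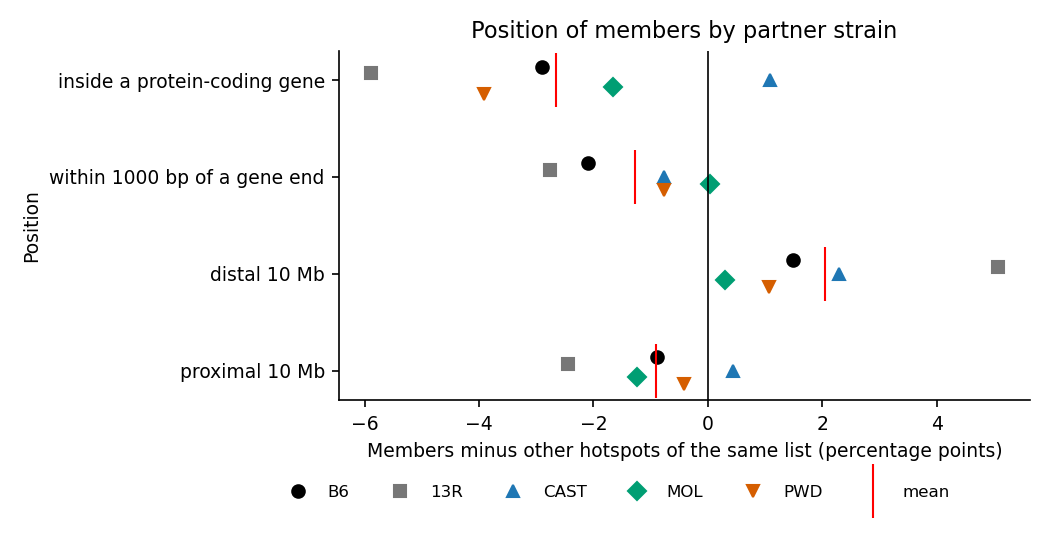
Difference in percentage points (x axis), members minus the other hotspots of the same list, at 4 positions (y axis), with a point for each of 5 partner strains and a red line at their mean. In the distal 10 Mb all 5 points lie to the right of 0, with a mean of 2.04 points.

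No member had its centre within 10000 bp of the genes of break formation and strand exchange (28 genes matched), of the synaptonemal complex, cohesin and telomere tethering (19) or of crossover maturation (15). A count of 0 of 526 allows a share of up to 0.570%, and 0.132%, 0.0421% and 0.0421% of all places lay there, so a difference was not detectable. Olfactory receptor genes had 5 members within that distance (0.951%), against 0.423% of all places, and vomeronasal receptor genes had 0, against 0.161%. The lists were chosen with earlier results of these data known. Members were found on every autosome, from 8 members among 1474 places on chr19, the lowest share, to 31 among 2068 on chr17, the highest.

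The same rule applied to the other laboratory strains gave larger sets. With C3H, 526 of 2445 hybrid-only places (21.5%) were called with at least 2 partners, against 890 of 3087 (28.8%) with B6 and 845 of 2220 (38.1%) with 13R. The share called with CAST, MOL and PWD alone was 72.4% for C3H, 84.2% for B6 and 62.2% for 13R. The number of crosses was 6 for C3H, 10 for B6 and 5 for 13R, and the excluded lists differ, so the shares stand side by side without a test.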

How the data were processed

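DMC1 SSDS was done on testis that was frozen and fixed in paraformaldehyde, per the labels. Of 31 samples, 26 carry a hotspot list, and 5 inputs were not used. The authors deposited for each library 1 list of intervals with a strength score. The submitters' processing notes name mm10 as the build, with CASAVA 1.8 and MACS2 2.0.10 among the tools. What each tool did, the filters, and how the deposited score was normalized are not stated in the sources used here. The score was therefore used only as a rank or percentile within a list. The depth per library is unknown, and list length is no measure of breaks.

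Centres under 400 bp apart were chained into places, and a place's position is the mean of its centres (median span 79.5 bp). It was left out when that mean lay under 400 bp from a centre of the 20 excluded lists. The alternatives tried are other distances, interval overlap, stronger hotspots, more partners and each cross left out.

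Genes came from a RefSeq table of GRCm38.p6, the primary assembly of mm10. A hotspot was named by the gene holding its centre, otherwise by the nearest gene end. Named were the 10 strongest members by mean percentile, the 10 strongest with 5 partners, up to 10 at gene ends and up to 4 of each gene list. The promoter members and the closest to 400 bp were shown besides. The members, lists and tests were chosen with earlier results of these data known. Sequence motifs were not analysed here. Python 3.11.15, numpy 2.4.6, pandas 2.3.3 and scipy 1.17.1 were used, and the script that applies the rule was checked on simulated data.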

Additional observations from a re-analysis of the deposited data

Results flagged for a closer look

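Values of the 6 crosses were compared for 30 quantities, such as the share of members called, the median percentile and the percentiles of named members, and in 1 of them a cross stood far from the other 5. The member near N6amt1, on chr16 at 86887084 to 86891263, had a percentile of 34.0 in C3HfX13Rm, against 77.4 to 97.1 in the other 5 crosses. Chance sets apart about 1 in 20 such groups. The median member stood at 33.0 in C3HfX13Rm, the lowest of the 6 lists, so 34.0 is close to the usual value of a member there. Members with all 5 partners, to which this one belongs, had a median of 53.6 in that list.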

How the results depend on the processing

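The number of members was 526 under the 400 bp rule, 253 from the strongest 50% of each list, 234 with at least 3 partners and between 287 and 523 with 1 cross left out. It was 311 without C3HfXMOLm and 287 without PWDfXC3Hm. The mean of the median percentiles was 78.3 from the strongest 50% of each list, where the main value was 50.7, and 49.3 to 53.7 with 1 cross left out. The share of B6fXC3Hm members called in C3HfXB6m was 100% when any overlap counted, and 94.4% to 95.1% with 1 other cross left out. Leaving out either B6 cross gives no such value. The share overlapping an inbred C3H hotspot, 12.2%, was 34.7% at 200 bp, 6.26% at 800 bp, 0% by construction when any overlap excluded a place, 8.78% when every single centre had to pass, 8.70% for the strongest 50%, 17.5% with at least 3 partners and 11.0% to 18.5% with 1 cross left out. The share of the wild-derived crosses alone, 72.4%, recomputed under settings chosen after seeing the data, was 55.6% at 200 bp, 77.8% at 800 bp, 82.2% with any overlap, 79.4% for the strongest 50%, 55.1% with at least 3 partners and 54.0% to 75.8% with 1 cross left out. It was 55.9% without C3HfXMOLm and 54.0% without PWDfXC3Hm. For position, the distal difference of 2.04 points was 0.506 with any overlap (exact permutation p = 0.375), 0.582 for the strongest 50% (p = 0.8125) and 1.03 at 200 bp (p = 0.3125). With 1 cross left out it was 1.10 to 3.16, with 1.10 without C3HfX13Rm, 1.26 without C3HfXB6m and 3.16 without PWDfXC3Hm. With the 6 crosses as 6 values it was 1.95 (exact permutation p = 0.03125), which counts both reciprocal B6 crosses, with 110 members in common, as independent and is the smallest p that 6 values allow. The difference inside genes was -0.187 at 800 bp and -3.77 to -1.44 with 1 cross left out. The proximal difference reversed to 1.23 for the strongest 50% and to 0.0594 against hybrid-only places of 1 partner, against which the difference inside genes reversed to 4.99. Apart from constructions named here, the cause was not tested. With at most 5 partner values the smallest possible permutation p is 0.0625, so only the setting with 6 values could give p under 0.05. In that setting no other position difference did. Libraries could not be paired by replicate number because each genotype had 1 library. The position differences were paired in another sense, as members minus other hotspots within the same list.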

Other observations

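The X chromosome lies outside the rule, and in these male mice it comes from the mother. The same rule applied to it gave 102 hybrid-only places of 2866, and 3 of them were called with at least 2 partners. These 3 are 2.94% of the hybrid-only places on the X, against 21.5% on the autosomes. Only C3HfX13Rm, C3HfXB6m, C3HfXCASTm and C3HfXMOLm had a C3H mother, and 1 of the 3 places was called in C3HfXMOLm and PWDfXC3Hm.

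Members were mostly far apart. Neighbouring members lay a median of 2614710 bp apart, and 11 of 507 gaps were under 10000 bp. A pair inside Sdk1, a neuronal cell adhesion gene, on chr5, was chosen after its values were seen. The members at 141529383 to 141531798 and at 141533915 to 141536016 were both called with CAST, MOL and PWD and with no other partner, and their mean percentiles were 86.7 and 66.3.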
